A study of Mus musculus with 6 samples.

Results

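The Zfp genes described here are the protein-coding genes that the deposited count table assigns to the transcription factor family zf-C2H2, whose symbols start with Zfp and which lie on mouse chromosomes 4, 12, 13 or 17. The rule uses no measured value and picked 106 of 54532 genes, 28 on chromosome 4, 2 on chromosome 12, 34 on chromosome 13 and 42 on chromosome 17. Poly(A) RNA came from TM3, an established line of mouse Leydig cells, the testicular cells that secrete testosterone. The pyrotinib group comprised 3 libraries of cells kept for 48 h with 100 nM pyrotinib, an irreversible inhibitor of the receptor kinases EGFR, HER2 and HER4. The DMSO group comprised 3 libraries of the same line kept for 48 h with 0.1‰ dimethyl sulfoxide, the vehicle. All 6 libraries derive from 1 cell line, without a change of genotype in either group.

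Most mammalian genes of this kind encode Krüppel-associated box (KRAB) zinc finger proteins. An array of C2H2 fingers binds DNA, in many cases within retrotransposons, and the KRAB domain recruits the scaffold protein TRIM28, which brings the histone methyltransferase SETDB1 and heterochromatin proteins to the bound site. The family has grown by tandem duplication, so neighbouring genes resemble each other and lie in clusters whose gene content differs between mammalian orders. Members without a KRAB domain act in other ways, and Zfp57 is a KRAB member known for protecting genomic imprints in the early embryo.

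By position, 71 of the 106 genes (67.0%) lay in 6 clusters, defined as at least 5 protein-coding C2H2 genes in a row with gaps of at most 250 kb. The other 35 lay outside, so the name of cluster genes holds for the majority only. Coordinates are those of the deposited table (mm10). The largest cluster, on chromosome 13 from 67038596 to 67827002, held 23 of the genes within 0.79 Mb. Chromosome 17 had a cluster of 18 genes from 21383748 to 22456689 and one of 12 genes from 32771236 to 33394641. Chromosome 4 had 10 genes from 146971976 to 147848366 and 5 from 145510759 to 146198755, and a second cluster on chromosome 13, from 62129886 to 62785808, held 3. Whether a cluster is particular to rodents was not examined.

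The sequence feature that the genes share is the finger repeat. A 14-base motif for the linker between adjacent fingers was searched in the reading frame of each protein-coding transcript (GENCODE release M21). Each gene was represented by its transcript with the most linkers, and among equals by the one with the longest coding sequence. At least 1 linker was found in 97 of the 106 genes (91.5%), against 406 of 21724 other protein-coding genes (1.87%). At least 5 were found in 69 of the genes (65.1%), against 0.856% of the other protein-coding genes, and the highest number was 18. The rule picked C2H2 genes, so high shares were set by that choice. The other protein-coding genes include the C2H2 genes outside the 106. The median was 7 linkers in genes inside clusters and 4 in genes outside. Of 558 steps from 1 linker to the next, 373 (66.8%) were 84 bases, the length of 1 finger with its linker. The repeats below are shown because they belong to genes on which the results turn, and because their likeness bears on how reads can be assigned. Each runs 5′ to 3′ on the coding strand from 1 linker to the base before the next, and capitals mark the linker motif.
Zfp65: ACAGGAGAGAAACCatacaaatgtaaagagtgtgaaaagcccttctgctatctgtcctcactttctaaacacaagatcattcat
Zfp994: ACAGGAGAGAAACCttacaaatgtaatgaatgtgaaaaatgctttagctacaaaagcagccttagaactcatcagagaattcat
Zfp40: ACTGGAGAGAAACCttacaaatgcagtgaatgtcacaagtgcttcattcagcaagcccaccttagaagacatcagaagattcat
Zfp986: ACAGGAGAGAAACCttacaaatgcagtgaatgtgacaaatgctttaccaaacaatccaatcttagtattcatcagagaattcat
Zfp960: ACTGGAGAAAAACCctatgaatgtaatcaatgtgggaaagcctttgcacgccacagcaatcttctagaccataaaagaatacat
Zfp97: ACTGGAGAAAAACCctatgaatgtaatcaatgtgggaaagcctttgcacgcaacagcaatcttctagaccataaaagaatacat

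The first 4 belong to genes among the 10 largest rises, and Zfp960 and Zfp97 are neighbours on chromosome 17. Zfp960 and Zfp97 were identical at 83 of 84 bases (98.8%). Zfp994 and Zfp986, on chromosomes 17 and 4, were identical at 71 of 84 bases (84.5%), while Zfp65 and Zfp97 were identical at 47 (56.0%). Such likeness extends to whole transcripts: in 26 of the 106 genes at least 20% of the 75-base words of the transcripts also occurred in another gene. For Zfp960 and Zfp97 the shares were 75.3% and 74.0%. The sources used here do not say how reads that fit several genes were counted, so values of these 26 genes are uncertain as to which copy they come from. In addition, 31 genes overlapped another annotated gene, 12 of them on the same strand and 20 on the opposite one, and the counting is not stated to use strand.

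Relative to all RNA, pyrotinib-treated cells held more transcripts of the Zfp genes than DMSO-treated cells. Of the 95 genes with enough reads to be tested, 55 (57.9%) rose, and none fell, at an adjusted p of 0.05 in edgeR's quasi-likelihood test, which adjusts over all 14125 genes tested. Over all genes tested, 13.2% rose and 12.8% fell (26% in either direction). The median log2 fold change of the 95 genes was 0.56 (1.47-fold), against 0 over all genes tested, and 84 of the 95 values were above 0, against 50.3% of all genes. At an unadjusted p under 0.05 the counts were 67 higher and 0 lower, a level at which all genes were not counted. DESeq2 also called 0 lower, against 1783 of 14124 genes. Without pyrotinib replicate 2, 61 rose and 1 fell, namely Zfp410, while 18% of all genes rose in that fit. Transcript GC content moved with the result: after a GC correction of each library 34 rose and 3 fell, with a median of 0.32. Over all 14125 genes in that fit 1860 (13.2%) rose and 2048 fell. The RNA was extracted from bulk cultures, so a change in the number of cells that express a gene and a change in RNA per cell cannot be told apart.

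Most changes were modest in size. Log2 fold changes ran from -0.56 to 1.62, with quartiles of 0.30 and 0.75, and the 55 genes that rose had a median rise of 1.61-fold. At least 1.5-fold rises that passed the test numbered 38 (40%), against 5.01% of all genes tested, and 9 genes rose at least 2-fold. The share of all genes that rose at least 2-fold was not counted. In 6 of the 55 genes the groups overlapped. In 61 of the 95 genes (64.2%) each pyrotinib library lay above each DMSO library, against 20.6% of all genes tested. The reverse held for 1 gene (1.05%), against 20.3% of all genes. That gene was Zfp69, a KRAB gene linked to diabetes susceptibility in mice and named here after its values were seen, at 1.09, 0.676 and 1.07 CPM in pyrotinib libraries against 1.47, 1.34 and 1.37 CPM in DMSO libraries. Its difference did not pass the test (log2 fold change -0.56 ± 0.40 SE, adjusted p = 0.321).

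The filter on low counts, 0.628 CPM in at least 3 libraries, kept 95 of the 106 genes. Of these, 90 were over that level in all 6 libraries, and 53 of the 90 rose. Another 4 were over it in all pyrotinib libraries but not in all DMSO libraries, namely Zfp980, Zfp457, Zfp456 and Zfp811, and 2 of them, Zfp456 and Zfp811, rose. A filter on the reads summed over all libraries, at least 50, also left 95 of the genes and 55 calls. Among the 11 genes not tested were 3 known from other cell types: Zfp683, which encodes the lymphocyte factor Hobit, had 0 reads, Zfp366, a dendritic cell gene also called DC-SCRIPT, had 1 read, and Zfp352, a gene of early embryos, had 7 reads. Zfp935 had 0 reads, and Zfp708, Zfp459, Zfp990 and Zfp947 had 6, 5, 4 and 1 reads. Zfp987, Zfp989 and Zfp273 had 30, 14 and 46 reads, too few to be tested.

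**Figure D1:**
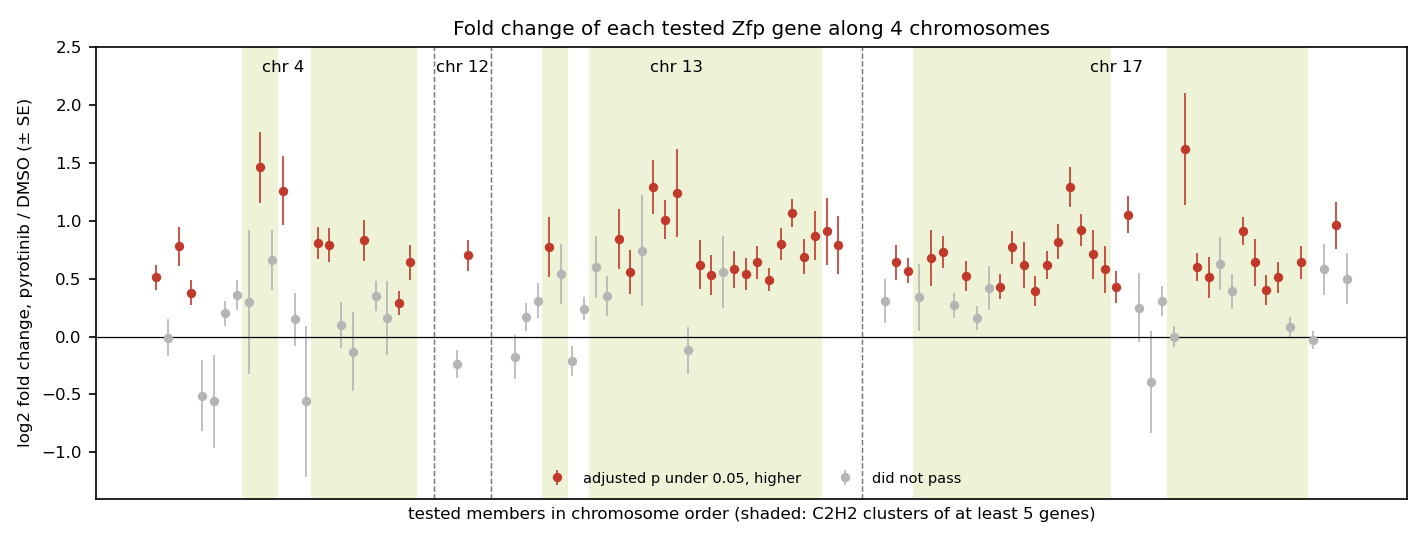
Log2 fold change (pyrotinib over DMSO, ± SE) of the 95 tested Zfp genes in chromosome order, with shading over the 6 C2H2 clusters and dashed lines between chromosomes. Red points, the 55 genes that rose, are spread over all clusters and over the genes outside them, and no gene passed the test below 0.

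Other zinc finger genes moved the same way to a smaller extent. Of the 200 tested protein-coding Zfp genes of the C2H2 family on other chromosomes, 65 (32.5%) rose and 8 fell, with a median log2 fold change of 0.28. All tested protein-coding C2H2 genes outside the 106 gave 114 rises and 17 falls among 328, also with a median of 0.28. With the GC correction the median was 0.32 for the 95 Zfp genes and 0.20 for both the 200 and the 328. That correction left 52 rises and 11 falls among the 200, against 34 and 3 among the 95. In pyrotinib replicate 2 alone the medians were 0.37 for the 95, 0.27 for the 200 and 0.23 for the 328. Among the 95 genes themselves, 43 of 63 inside clusters rose (68.3%, median log2 fold change 0.62), and 12 of 32 outside clusters did (37.5%, median 0.31). Inside clusters, 61 of the 63 values were above 0. After the GC correction 24 of 63 rose inside (median 0.34) and 10 of 32 outside (median 0.26), so the sets lay much closer together. No test was made of the difference between these sets, whose genes share sequence and are not independent.

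**Figure D2:**
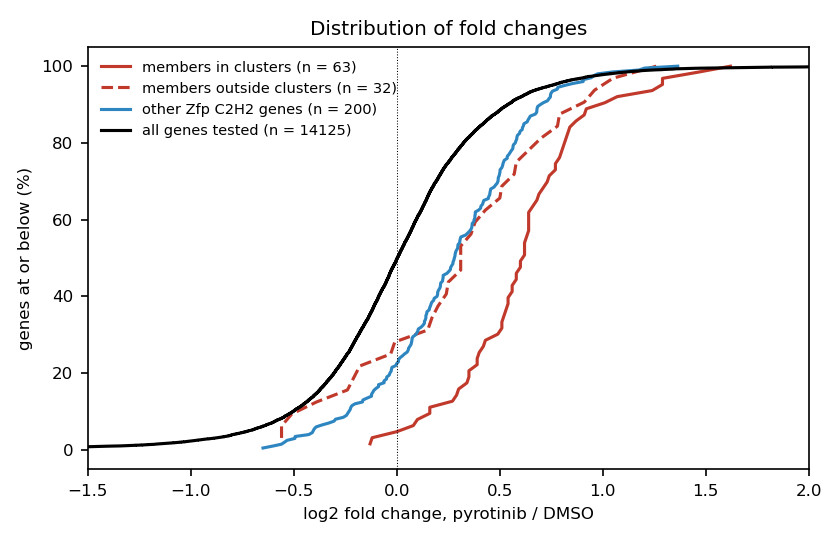
Cumulative share of genes (percent) at or below each log2 fold change (pyrotinib over DMSO), for tested Zfp genes inside clusters (n = 63), outside clusters (n = 32), other Zfp genes of the C2H2 family (n = 200) and all genes tested (n = 14125). The curve of cluster genes lies to the right, with a median of 0.62, against 0.31, 0.28 and 0 for the other sets; after a GC correction, not drawn, these medians are 0.34, 0.26, 0.20 and -0.01.

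On chromosome 13, 18 of 29 tested genes rose, with a median log2 fold change of 0.60. The large cluster near 67 Mb gave 15 rises among 20 tested genes, with a median of 0.63 and a range of -0.12 to 1.29. After the GC correction 8 rose on the chromosome (median 0.35), all 8 in this cluster (median 0.38), and 1 gene of the chromosome fell. The cluster contains the genes studied as candidates for the mouse locus Rsl, which represses sex-limited genes in liver, and RefSeq lists Rslcan synonyms for Zfp455, Zfp456, Zfp458 and Zfp595. The second cluster, near 62 Mb, gave 1 rise among 2 tested genes. Zfp65 (ENSMUSG00000071281, 67705309 to 67729173) gave the smallest adjusted p of all the Zfp genes. It had 27.8, 25.3 and 30.0 CPM in pyrotinib libraries and 13.6, 12.4 and 13.5 CPM in DMSO libraries. The lowest treated library was above the highest vehicle library by far more than the spread within either group (27.7 ± 2.33 against 13.2 ± 0.647 CPM, SD, n = 3 each). Zfp65 rose 2.10-fold (log2 fold change 1.07 ± 0.12 SE, adjusted p = 1.5e-05).

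Zfp595 (67312998 to 67332570) and Zfp953 (67339306 to 67360605) are neighbours in the same cluster. Zfp595 had 8.64, 6.14 and 9.55 CPM with pyrotinib and 2.47, 3.39 and 4.05 CPM with DMSO, and rose 2.44-fold (log2 fold change 1.29 ± 0.23 SE, adjusted p = 7.5e-04). Zfp953 had 20.1, 12.8 and 15.3 CPM with pyrotinib and 7.20, 8.64 and 7.99 CPM with DMSO, and rose 2.02-fold (adjusted p = 4.7e-04). In both genes the lowest treated library was pyrotinib replicate 2, and it still lay above each DMSO library. The next gene, Zfp456 (67362113 to 67375810), was 2.36-fold higher at low counts, with 3.14, 2.15 and 1.88 CPM against 1.2, 0.640 and 1.19 CPM (adjusted p = 0.0228). Its call was lost without pyrotinib replicate 1 (log2 fold change 1.00, adjusted p = 0.121) and without DMSO replicate 2 (0.99, adjusted p = 0.115), as it was with the GC correction (0.97, adjusted p = 0.0617), with or without a length correction, and 60.8% of its 75-base words also occur in other genes. Zfp595 and Zfp953 overlap the annotated gene Gm28044 on the same strand, so part of their reads may belong to it.

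The promoters of the cluster near 67 Mb had a motif in common that was rare in the other clusters. Promoters are the 250 bases before and 50 bases after the RefSeq transcript start (GRCm38.p6), and 87 of the 106 genes had one. The 3 shown belong to genes of this cluster with large rises, and capitals mark the 13-base motif bound by ZNF143 and THAP11 and TGACGTCA, the cAMP response element, on either strand. Zfp595 and Zfp953 hold both motifs, and Zfp65 holds the ZNF143 motif alone.
Zfp595, chr13:67332511-67332810, minus strand: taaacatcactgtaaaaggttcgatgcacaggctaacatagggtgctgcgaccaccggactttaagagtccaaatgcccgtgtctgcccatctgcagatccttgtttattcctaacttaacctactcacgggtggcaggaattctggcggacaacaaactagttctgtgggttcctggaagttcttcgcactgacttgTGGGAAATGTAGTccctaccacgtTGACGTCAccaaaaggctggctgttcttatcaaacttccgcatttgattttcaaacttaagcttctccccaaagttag
Zfp953, chr13:67360523-67360822, minus strand: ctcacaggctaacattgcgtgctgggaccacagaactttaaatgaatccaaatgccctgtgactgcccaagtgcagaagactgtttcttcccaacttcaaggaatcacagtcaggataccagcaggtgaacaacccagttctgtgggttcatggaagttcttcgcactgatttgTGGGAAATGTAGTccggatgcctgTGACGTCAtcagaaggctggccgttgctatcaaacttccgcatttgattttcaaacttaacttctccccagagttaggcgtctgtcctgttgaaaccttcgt
Zfp65, chr13:67729124-67729423, minus strand: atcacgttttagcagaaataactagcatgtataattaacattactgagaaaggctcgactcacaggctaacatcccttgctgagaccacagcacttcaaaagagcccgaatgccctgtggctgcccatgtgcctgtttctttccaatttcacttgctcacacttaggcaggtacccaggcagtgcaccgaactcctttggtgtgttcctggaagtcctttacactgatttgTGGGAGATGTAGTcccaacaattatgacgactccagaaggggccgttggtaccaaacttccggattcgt

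The ZNF143 motif was searched after these promoters had been read, so its frequency describes them and is no independent finding. It occurred on either strand in 22 of the 87 genes (25.3%), against 1.69% of 27025 genes with a promoter and 4.03% of those tested. In the cluster near 67 Mb it occurred in 19 of 20 genes, and in none of the 17 and 11 genes of the chromosome 17 clusters. Among genes with the motif and without it were both genes that rose and genes that did not: it was present in 30.4% of the genes that rose and 17.6% of those that did not pass. TGACGTCA occurred in 8 of the 87 genes (9.20%, against 2.03% of all and 3.6% of those tested), 5 of them in that cluster. The AP-1 motif TGANTCA occurred in 3.45% of the genes, against 8.97% of all and 6.27% of those tested, and the E-box CACGTG in 14.9%, against 8.09% and 11.6%. For the ETS motif CCGGAAG the share of 17.2% was above that of all genes (9.93%) and below that of tested genes (20.3%). The YY1 motif AANATGGC occurred in 10.3%, against 6.96% of all and 10.2% of tested genes, and TATAAA in 9.20%, against 15.7% of all and 8.64% of tested genes. The NRF1 motif occurred in 1.15%, against 1.07% and 2.40%, and the SRF core motif in none of the genes, 0.0777% of all and 0.0409% of those tested. Each motif was searched on its own, so overlapping matches count under each, and a match in 300 bases is a description of the letters and not of binding.

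On chromosome 17, 26 of 41 tested genes rose, with a median log2 fold change of 0.57. The cluster near 21 Mb gave 13 rises among 17 tested genes, all 17 values being above 0, with a range of 0.16 to 1.29. With the GC correction 14 rose on the chromosome (median 0.30), 6 of them in this cluster (median 0.27), and 2 fell. Zfp994 (ENSMUSG00000096433, 22197265 to 22225616) led it, at 23.7, 18.7 and 23.4 CPM in pyrotinib libraries and 10.5, 6.21 and 10.2 CPM in DMSO libraries. The lowest treated value was well above the highest vehicle value, and the rise was 2.44-fold (log2 fold change 1.29 ± 0.17 SE, adjusted p = 6.9e-05). Zfp944 had 32.9, 24.4 and 33.7 CPM against 17.3, 13.2 and 17.6 CPM, a rise of 1.89-fold (adjusted p = 2.5e-04). In Zfp51 the values were 19.6, 21.5 and 21.9 CPM against 13.9, 10.4 and 13.7 CPM, and the rise was 1.66-fold (adjusted p = 0.00106). Both of these genes, named after their values were seen, kept the groups apart.

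The second cluster on this chromosome, near 33 Mb, gave 8 rises among 12 (median log2 fold change 0.55), and 5 rises and 2 falls after the GC correction (median 0.39). Zfp811 (ENSMUSG00000055202, 32795676 to 32809853) had the largest fold change of the 95 genes but few reads, 108 over all libraries. It gave 1.66, 1.72 and 1.76 CPM with pyrotinib and 0.200, 0.448 and 0.998 CPM with DMSO (log2 fold change 1.62 ± 0.48 SE, 3.06-fold, adjusted p = 0.0195). The treated libraries lay close together while the vehicle libraries spread over a wide range. The call was lost without pyrotinib replicate 3 (1.6, adjusted p = 0.0617), without DMSO replicate 1 (1.23, adjusted p = 0.092) and without DMSO replicate 2 (1.48, adjusted p = 0.0893). Zfp763, named after its values were seen, had many more reads, with 48.0, 38.2 and 47.1 CPM against 25.7, 21.7 and 23.5 CPM, and rose 1.88-fold (adjusted p = 4.7e-05). The paralogs Zfp955b and Zfp955a, which share 36.5% and 37.1% of their 75-base words with other genes, rose 1.42-fold and 1.32-fold (adjusted p = 0.00805 and 0.0349). Zfp955b lost the call without pyrotinib replicate 3 (log2 fold change 0.39, adjusted p = 0.0587) and without DMSO replicate 2 (0.40, adjusted p = 0.0646). Zfp955a lost it without pyrotinib replicate 3 (0.26, adjusted p = 0.213) or any of DMSO replicates 1, 2 and 3 (adjusted p = 0.0623, 0.173 and 0.0593), and also with the GC correction (0.16, adjusted p = 0.333).

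Outside the clusters of chromosome 17, Zfp40 (ENSMUSG00000002617, 23173869 to 23193252) had 16.4, 15.8 and 20.2 CPM with pyrotinib and 9.79, 7.42 and 8.05 CPM with DMSO. Its groups were well separated, and it rose 2.08-fold (log2 fold change 1.05 ± 0.16 SE, adjusted p = 1.5e-04). Zfp959 (55892093 to 55898928) had 7.49, 6.94 and 7.98 CPM against 3.66, 3.52 and 4.30 CPM and rose 1.95-fold (adjusted p = 0.00191). The pair Zfp960 and Zfp97, shown above for their sequence, lies near 17 Mb. Zfp97 had 20.8, 18.6 and 28.2 CPM against 12.5, 14.6 and 16.2 CPM (1.56-fold, adjusted p = 0.00552). Without pyrotinib replicate 3 its log2 fold change was 0.45 (adjusted p = 0.0506), and with the GC correction it was 0.32 (adjusted p = 0.0774). Zfp960 had 13, 11.8 and 18.1 CPM against 8.59, 13.8 and 12.3 CPM, with overlapping groups (adjusted p = 0.238, and log2 fold change -0.01 after the GC correction). Since 75.3% of the words of Zfp960 also occur elsewhere, the division of reads between these genes is uncertain.

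**Figure D3:**
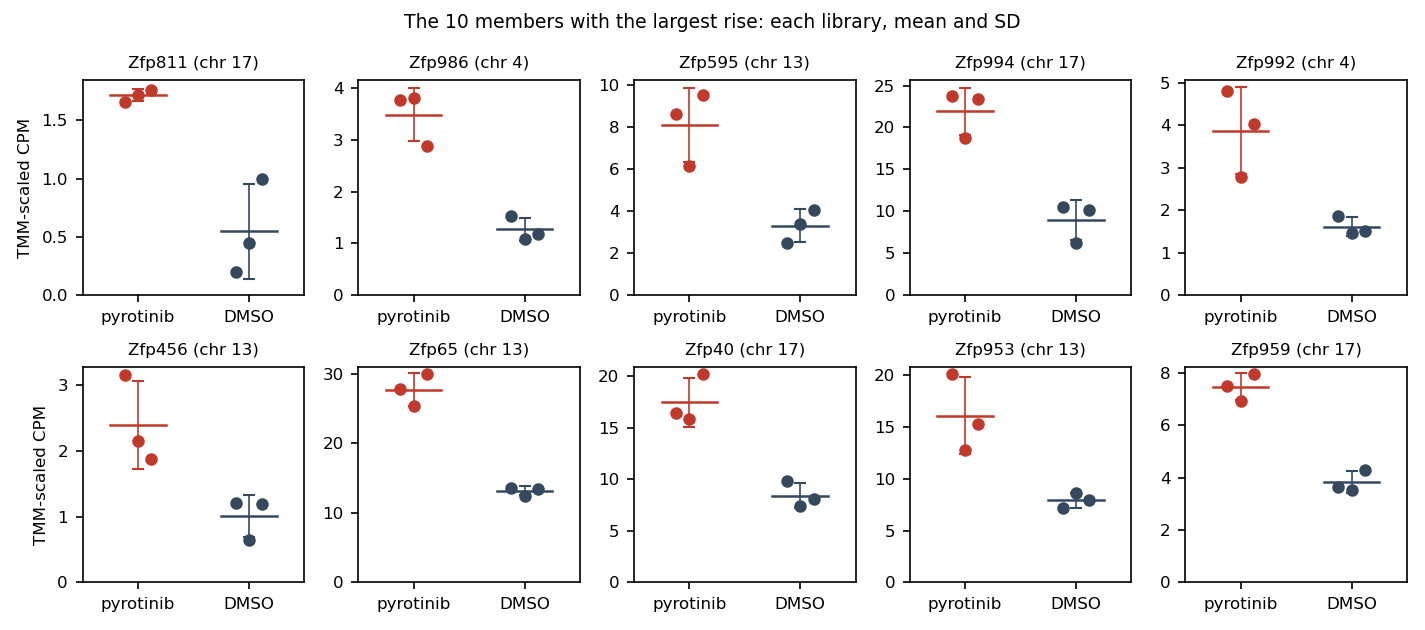
TMM-scaled CPM of the 10 Zfp genes with the largest rise that passed the test, one panel a gene, with pyrotinib libraries left of DMSO libraries; points are libraries, and bars show the mean and SD (n = 3 each). In all 10 genes each pyrotinib library lies above each DMSO library, and Zfp811, Zfp986, Zfp992 and Zfp456 are below 5 CPM throughout.

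On chromosome 4, 10 of 23 tested genes rose, with a median log2 fold change of 0.35. Mice lacking a cluster of KRAB zinc finger genes on this chromosome are known for raised levels of some endogenous retroviruses. The cluster near 147 Mb gave 5 rises among 9 tested genes, and the one near 146 Mb gave 1 among 3. After the GC correction 11 rose on the chromosome (median 0.28), while the median of the cluster near 147 Mb turned to -0.05 with 4 rises. Zfp986 (ENSMUSG00000078500, 145868794 to 145899975) had 3.77, 3.81 and 2.89 CPM with pyrotinib and 1.53, 1.09 and 1.19 CPM with DMSO. Its groups did not overlap, and it rose 2.75-fold (log2 fold change 1.46 ± 0.31 SE, adjusted p = 0.00264). Zfp992 (146449023 to 146470292), between the clusters, had 4.80, 2.77 and 4.02 CPM against 1.87, 1.47 and 1.5 CPM and rose 2.39-fold (adjusted p = 0.00552). Zfp991 and Zfp988, named after their values were seen, rose 1.75-fold and 1.73-fold (adjusted p = 4.7e-04 and 0.00124). These 4 genes share 77.4%, 34.5%, 75.9% and 56.1% of their 75-base words with other genes, in the order given, so the copy that each value belongs to is uncertain. Over the 22 tested genes that share at least 20%, 12 rose (median log2 fold change 0.52), and over the 73 that share less, 43 rose (median 0.57), and after the GC correction 6 and 28 rose (median 0.32 in both). Among the 28 tested genes that overlap another annotated gene 17 rose (median 0.54), and among the other 67 genes 38 rose (median 0.58).

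Chromosome 12 held 2 of the genes, neither in a cluster. Zfp386, named after its values were seen, had 53.8, 43.1 and 61.5 CPM in pyrotinib libraries and 35.7, 28 and 33.9 CPM in DMSO libraries. All treated libraries were above all vehicle libraries, and Zfp386 rose 1.62-fold (log2 fold change 0.70 ± 0.13 SE, adjusted p = 8.3e-04). Zfp410, known as an activator of the chromatin remodeller gene Chd4 and likewise named after its values were seen, had 25.8, 30.0 and 23.1 CPM against 28, 33.5 and 31.6 CPM. Its groups overlapped (log2 fold change -0.24 ± 0.12 SE, adjusted p = 0.153), and it passed without pyrotinib replicate 2 (-0.34, adjusted p = 0.0267).

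Levels are compared between genes in FPKM, the deposited values per gene length. Means over the 6 libraries ran from 0.253 to 27.8 FPKM among the tested genes, with 81 of the 106 genes at 1 FPKM or more and 10 at 10 FPKM or more. Zfp57 was the most abundant. It stood at 25.8, 28 and 28.2 FPKM in pyrotinib libraries and 28, 29.3 and 27.3 FPKM in DMSO libraries, with overlapping groups (log2 fold change -0.03 ± 0.08 SE, adjusted p = 0.845). Zfp292, a large gene whose product has been studied as a regulator of growth hormone, was next, at 27.8, 24.1 and 26.6 FPKM against 21.7, 15.3 and 18.9 FPKM. Its groups did not overlap, and by counts it rose 1.42-fold (log2 fold change 0.51 ± 0.11 SE, adjusted p = 0.00225).

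Several of the abundant genes did not pass the test. Zfp871 averaged 21.9 ± 2.02 FPKM with pyrotinib and 22.2 ± 1.39 FPKM with DMSO (SD, n = 3 each), with a log2 fold change of 0 ± 0.09 SE (adjusted p = 0.999). Zfp948 averaged 22.5 ± 1.57 and 20.4 ± 2.67 FPKM (log2 fold change 0.16, adjusted p = 0.279). Zfp53 averaged 16.0 ± 0.790 FPKM with pyrotinib and 13.4 ± 1.94 FPKM with DMSO (log2 fold change 0.27, adjusted p = 0.0758). All 3 had overlapping groups, and Zfp53 passed without pyrotinib replicate 2 (0.31, adjusted p = 0.0337) or DMSO replicate 3 (0.39, adjusted p = 0.0342). Zfp984, at 21.6 ± 2.39 FPKM against 17.9 ± 1.36 FPKM, gave the smallest rise that passed (1.22-fold, log2 fold change 0.29, adjusted p = 0.0417). It did not pass when any library other than pyrotinib replicate 2 was left out, with adjusted p between 0.0673 without DMSO replicate 2 and 0.213 without pyrotinib replicate 3. With the GC correction its direction turned (-0.06, adjusted p = 0.669). Of the 75-base words of Zfp984, 40.9% also occur in other genes, and it overlaps the annotated gene Gm20707 on the same strand. Across the 95 genes, Spearman's rho between log2 fold change and mean CPM was -0.11, a description over genes that share the same libraries.

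Genes studied by name for other roles gave mixed results. Zfp37, a KRAB gene expressed in testis and brain, had 19.2, 14.8 and 21.6 CPM with pyrotinib and 12.1, 8.51 and 11.7 CPM with DMSO. Its groups did not overlap, and it rose 1.72-fold (log2 fold change 0.78 ± 0.17 SE, adjusted p = 0.00248). Zfp369, also called NRIF2 after the neurotrophin receptor that it was found to bind, had 46.8, 44.7 and 49.6 CPM against 36.5, 41.1 and 41.9 CPM. Each treated library was above each vehicle library, yet the difference did not pass the test (0.24 ± 0.10 SE, adjusted p = 0.0834) except without pyrotinib replicate 2 (0.28, adjusted p = 0.0297). Zfp367, a factor linked to the cell cycle, had 18.1, 16.8 and 18.8 CPM against 18.3, 23.0 and 20.8 CPM, with overlapping groups (-0.21 ± 0.13 SE, adjusted p = 0.238).

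By number of finger linkers, 40 of 63 tested genes with 5 or more rose (median log2 fold change 0.62), as did 13 of 27 with 1 to 4 (median 0.35) and 2 of 5 with none (median 0.24). These values carry no GC correction, the classes overlap with the clusters, and no test of the differences was made. Zfp57, Zfp292 and Zfp369 are among the genes without a linker match.

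Libraries of a group differed in how far the Zfp genes were displaced. Relative to the mean of the DMSO libraries, the median tested Zfp gene stood at 0.52, 0.36 and 0.68 on the log2 scale in pyrotinib replicates 1, 2 and 3, and at 0.07, -0.10 and 0.06 in DMSO replicates 1, 2 and 3. The medians of the groups did not overlap, and the medians of all tested genes lay between 0 and 0.01. Of all reads, the 106 genes took 0.221%, 0.202% and 0.237% in pyrotinib libraries, against 0.169%, 0.145% and 0.167% in DMSO libraries. Pyrotinib replicate 3 was the highest library for 62 of the 95 genes and DMSO replicate 2 the lowest for 58. With DMSO replicate 2 left out 32 Zfp genes rose, against 6.67% of all genes in that fit. With pyrotinib replicate 3 left out 34 did, against 7.79% of all genes. With all 6 libraries 13.2% of all genes rose. In all, 29 Zfp genes passed in each of the fits without 1 library. The share of all genes that passed in each of these fits was not counted.

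**Figure D4:**
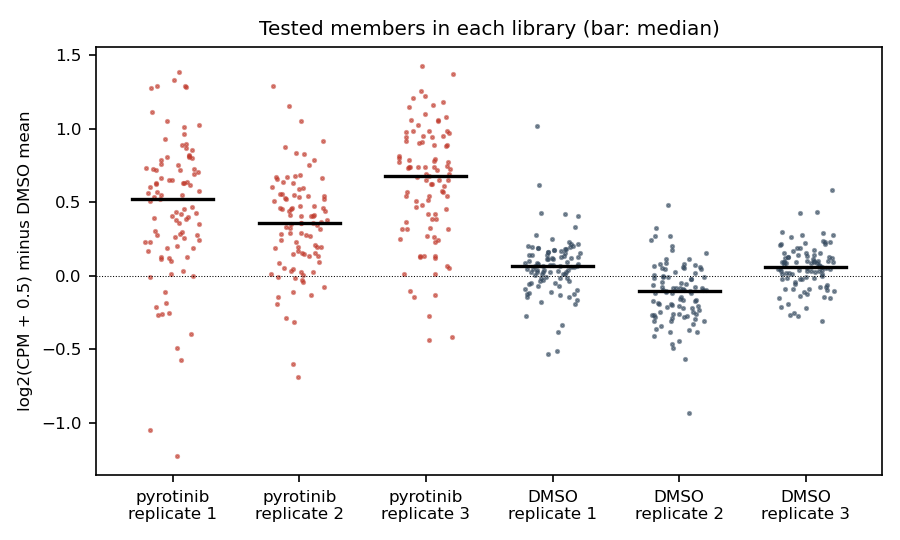
Log2(CPM + 0.5) of each tested Zfp gene minus its mean in the DMSO libraries, for pyrotinib replicates 1 to 3 and DMSO replicates 1 to 3; points are genes and bars are medians. The medians of the pyrotinib libraries are 0.52, 0.36 and 0.68, above 0.07, -0.10 and 0.06 in the DMSO libraries.

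Base composition moved with the result. In pyrotinib replicates 1 and 3 the log ratio to the DMSO mean fell with transcript GC content over all tested genes, by 0.23 and by 0.27 on the log2 scale per 10 percentage points, while the slope was -0.01 in pyrotinib replicate 2 and between -0.01 and 0.02 in the DMSO libraries. The tested Zfp genes had a median transcript GC content of 39.1%, against 49.6% for all genes tested. Among the tested Zfp genes under 40% GC, 41 of 61 rose (67.2%, median log2 fold change 0.64), and among the 865 other genes tested under 40% GC, 268 rose (31.0%) and 37 fell (4.28%), with a median of 0.27. Between 40% and 45% GC, 13 of 21 Zfp genes rose (median 0.53), and above 45% GC 1 of 13 did (median 0.20). That gene was Zfp618, named after its values were seen, at 42.0, 52.9 and 47.6 CPM against 36.2, 34.4 and 38.6 CPM (1.30-fold, adjusted p = 0.013). It did not pass without DMSO replicate 2 (log2 fold change 0.34, adjusted p = 0.075). Across the 95 genes, Spearman's rho between log2 fold change and GC content was -0.40, a description over genes that share the same libraries.

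**Figure D5:**
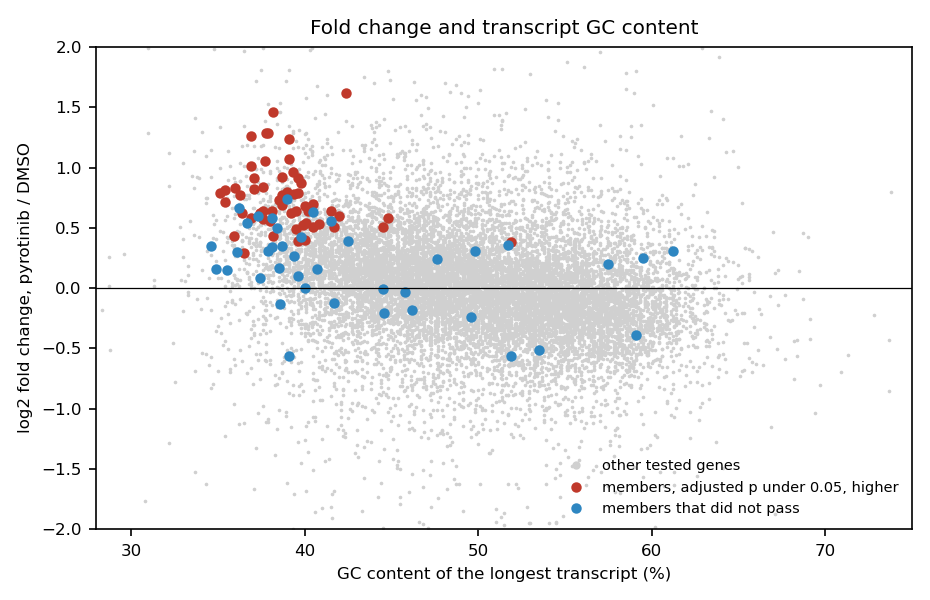
Log2 fold change (pyrotinib over DMSO) against GC content of the longest transcript (percent) for tested Zfp genes that rose (red), tested Zfp genes that did not pass (blue) and other tested genes (grey). Of the Zfp genes under 40% GC, 41 of 61 rose, and above 45% GC 1 of 13 did; genes beyond 2 on the log2 scale are off the axis.

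Values with that slope removed, or from the library without it, were smaller. With a GC correction of each library 34 of the 95 genes rose and 3 fell. Over all 14125 genes in that fit 1860 (13.2%) rose and 2048 fell. The median log2 fold change of the 95 Zfp genes was 0.32, and 31 of the 34 were among the 55. The 3 genes that fell were Zfp871, Zfp81 and Zfp367 (log2 fold change -0.24, -0.24 and -0.32, adjusted p = 0.0121, 0.0364 and 0.0474). Zfp362, Zfp46 and Zfp523 were the 3 that rose with the correction alone (0.35, 0.41 and 0.46, adjusted p = 0.00633, 0.0247 and 0.00318). Pyrotinib replicate 2 alone against the DMSO libraries gave 15 rises and no fall among 96 genes, with a median of 0.37, against 3.46% rises over all genes in that fit. For that test the spread comes from the DMSO libraries alone, and the single treated library is assumed to vary like them. In that library the Zfp genes under 40% GC had a median log2 fold change of 0.42, and the other genes under 40% GC had one of 0.04.

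A core of 11 Zfp genes rose in the comparison of all libraries, with the GC correction, in pyrotinib replicate 2 alone and in each fit that left out 1 library. They were Zfp65, Zfp953 and Zfp729a on chromosome 13, Zfp994, Zfp944, Zfp51, Zfp40 and Zfp763 on chromosome 17, and Zfp986, Zfp991 and Zfp988 on chromosome 4. How many of all genes passed the same fits was not counted, and the fits reuse the same 6 libraries. Zfp986, Zfp991 and Zfp988 share 77.4%, 75.9% and 56.1% of their 75-base words with other genes, so their reads may overlap. Zfp729a, a gene with many reads, had 54.8, 51.2 and 56.3 CPM in pyrotinib libraries against 39.1, 35.4 and 40.9 CPM in DMSO libraries and rose 1.41-fold (adjusted p = 0.00155). With the GC correction the log2 fold changes of the 11 lay between 0.24 for Zfp729a and 1.18 for Zfp986, and Zfp65 kept 0.80 (adjusted p = 3.7e-05). Zfp729a and Zfp988 passed narrowly with that correction (adjusted p = 0.0436 and 0.0422). In pyrotinib replicate 2 alone Zfp65 gave 0.95, and the 11 lay between 0.42 for Zfp729a and 1.59 for Zfp986. Zfp953, Zfp729a, Zfp988 and Zfp944 passed only narrowly in that fit. The part of GC content in the results was not tested further, for these 11 genes or for the others.

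Genes of the corepressor machinery through which KRAB proteins act passed the test about as often as all genes. Of 30 tested genes of a list of KRAB partners and H3K9 methylation factors, 3 rose and 5 fell, against 13.2% and 12.8% of all genes tested. Trim28, the scaffold that binds the KRAB domain, was at 344, 339 and 326 CPM in pyrotinib libraries and 330, 335 and 332 CPM in DMSO libraries, with overlapping groups (log2 fold change 0.02 ± 0.08 SE, adjusted p = 0.892). Setdb1, the methyltransferase it recruits, was at 66.7, 73.7 and 70.2 CPM against 67.2, 65.9 and 70.1 CPM, also overlapping (0.05 ± 0.09 SE, adjusted p = 0.696). Fam208a, which encodes the TASOR subunit of the HUSH silencing complex, rose 1.49-fold (adjusted p = 0.00134), Smarcad1, a chromatin remodeller that binds TRIM28, 1.37-fold (adjusted p = 0.0102), and Morc2a, an ATPase of HUSH silencing, 1.28-fold (adjusted p = 0.00525). The 5 that fell were Cbx1, which encodes a heterochromatin protein (1.32-fold, adjusted p = 0.00413), Chd3, a remodeller of the NuRD complex (1.23-fold, adjusted p = 0.0265), Daxx, a histone chaperone (1.28-fold, adjusted p = 0.0345), Sae1, an enzyme of SUMO attachment (1.23-fold, adjusted p = 0.0182), and Sumo2. Sumo2 had 12.7, 42.0 and 15.6 CPM against 61.6, 30.5 and 78.3 CPM, so its groups overlapped (2.42-fold lower, adjusted p = 0.00839). The number of these genes past the threshold was 8 with all libraries, when 26% of all genes passed. It was 15 without pyrotinib replicate 2 (35.9% of all genes) and 3 without pyrotinib replicate 3 (14.9%). It was 5 without pyrotinib replicate 1 (17.7%), DMSO replicate 2 (13.5%) or DMSO replicate 3 (16.9%). It was 0 in pyrotinib replicate 2 alone. With the GC correction it was again 8, but Smarcad1, Chd3 and Daxx did not pass (adjusted p = 0.0578, 0.0701 and 0.0827), while Kdm4a rose and Mphosph8 and Cbx3 fell (adjusted p = 0.00644, 0.0117 and 0.0258).

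Library totals lay between 15488289 and 16118922 counts with pyrotinib and between 15005737 and 16171030 with DMSO. The Leydig identity of the line was weakly marked: of 8 Leydig genes, Star and Insl3 had enough reads to be tested, Cyp11a1 had 19 reads and the luteinizing hormone receptor gene Lhcgr had 0. The summed Leydig markers lay between 6.14 and 7.74 CPM with pyrotinib and between 4.37 and 5.50 CPM with DMSO. Summed Sertoli markers were at most 0.384 against 0.200 CPM, germ cell markers at most 1.79 against 0.873 CPM, macrophage markers at most 3.45 against 3.99 CPM and endothelial markers at most 0.704 against 1.33 CPM, with Fshr, Dazl and Kdr at 0 reads. Their part in the results was not tested.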

How the data were processed

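Poly(A) RNA from 3 pyrotinib and 3 DMSO libraries of TM3 cells was analysed from the deposited tables. Per the submitters' processing notes, the build was mm10 and the tools were DESeq2 1.20.0, featureCounts 1.5.0-p3, HISAT2 2.0.5 and fastp. The sources used here do not give their roles or settings, the annotation release, the use of strand or the treatment of reads that fit several genes. The deposited count table holds whole reads per gene and library, and the deposited FPKM table holds values that the authors scaled by gene length and library size. Every sample column of both tables was assigned to a library through the labels.

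Counts were tested in R 4.3.3 with edgeR 4.0.16 (two-sided quasi-likelihood F-test, TMM scaling, filterByExpr at 10 reads per library and 15 in total, no replicate block). Benjamini-Hochberg adjustment covered all 14125 genes tested, and the threshold was 0.05. The procedure was tested on simulated data. CPM values are TMM-scaled, errors are SD over 3 libraries, and the SE of a log2 fold change is its size divided by the square root of F. Alternatives were DESeq2 1.42.0, other scalings and filters, limma 3.58.1 on log2 of FPKM plus a pseudocount, a replicate block, a correction for GC content (lowess per library, span 0.3), pyrotinib replicate 2 alone and leaving out each library. The GC correction without DMSO replicate 2 was added after seeing the data. Transcripts and 75-base words came from GENCODE M21, and promoters from RefSeq GRCm38.p6.

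The members, gene lists, named genes and tests were chosen with earlier results of these data known. Named genes were the 10 largest rises and 10 largest falls that passed, the 8 highest by FPKM, and Zfp57, Zfp37, Zfp367, Zfp369 and Zfp366. Two-sided tests compare libraries numbered as replicates, with nothing in the labels to show separate cultures, so p-values measure the spread between these libraries, which may be technical. No libraries of a group were alike within sampling noise (chi-square per degree of freedom 3.93 to 14.8). At these depths 3 reads, the upper limit that a count of 0 allows, correspond to 0.184 to 0.200 CPM, which covers counting error only.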

Additional observations from a re-analysis of the deposited data

How the results depend on the processing

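The number of Zfp genes past the threshold, 55 among 95, was 54 to 61 with DESeq2, median-ratio or upper-quartile scaling, a filter of 50 reads and the replicate block (61). It was 53 among 104 with no count filter, 37 with the GC correction and 38 with GC correction and block. It was 35 with the GC and length correction, 31 among 89 with limma on log2 of FPKM plus 1 or plus 0.1, and 7 among 104 with no FPKM filter. It was 18 with the GC correction without DMSO replicate 2, and 32 to 62 in fits without 1 library. Over all genes, 26% passed, against 14.2% with no count filter, 27.7% with the GC correction, 15.5% with limma and 2.11% with no FPKM filter. The share was 30.2% with the block, 30.3% with GC correction and block, and 28% with the GC and length correction. It was 17.7% with the GC correction without DMSO replicate 2. In that fit 17 of 95 Zfp genes rose and 1 fell, against 8.27% rises over all genes. In fits without 1 library 13.5% to 35.9% of all genes passed. The median log2 fold change, 0.56, was 0.32 with the GC correction with or without the block, 0.29 with GC and length, 0.38 with limma on FPKM plus 1, 0.32 with no FPKM filter, 0.37 in replicate 2 alone, 0.25 with the GC correction without DMSO replicate 2, and 0.46 to 0.61 in fits without 1 library. The 8 KRAB partner genes past the threshold were 4 with limma on FPKM plus 1 or plus 0.1, 2 with no FPKM filter, 0 in replicate 2 alone and 3 to 15 in fits without 1 library. The causes of these moves were not tested, except that fewer samples entered the fits without libraries. The count of cluster genes, 71, was between 52 and 80 under other gaps and cluster sizes. Over the named genes and alternatives, 324 values kept direction and call, 60 lost the call, 7 gained it and 25 changed sign. Zfp871, at 0 in the comparison of all libraries, was 0 with DESeq2, median-ratio scaling or the block, -0.01 with no count filter, -0.02 with each limma fit, -0.24 with the GC correction with or without the block, -0.31 with GC and length, -0.13 in replicate 2 alone, -0.26 with the GC correction without DMSO replicate 2, and -0.06 to 0.07 in fits without 1 library. Zfp948 was -0.06, -0.05 with the block, -0.05 with length and -0.15 without DMSO replicate 2 under the GC correction. Zfp984 was -0.06, -0.06 with the block and -0.05 with length, and Zfp53 was -0.05 with the GC correction without DMSO replicate 2. Zfp57 was 0.02 in replicate 2 alone and without pyrotinib replicate 1. Same-numbered libraries of the groups deviated together little (correlations of 0.01, 0.11 and 0.04). With 3 libraries in each group these values cannot settle whether the numbers pair them. The block raised the count of Zfp genes to 61 and that of KRAB partners to 9, while 30.2% of all genes passed. Zfp53 passed with the block (0.28, adjusted p = 0.0366).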
